A study of Mus musculus with 194 samples.

Results

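The interleukin 2 and 7 receptor system is described here by 10 genes, which are Il2ra, Il2rb, Il2rg and Il7r for the receptor chains, Jak3 for the kinase, Stat5a and Stat5b for the transcription factors, and Cish, Socs1 and Socs3 for the feedback inhibitors. The 10 genes were chosen by symbol from the 23420 gene rows of the deposited table, and all 10 had a row. The choice was made with earlier results of these data known. Their levels were examined in 97 libraries of CD8+ T-cells and 81 libraries of the L1210 line, out of 194 in all, each made from 1 cell that had been followed through its divisions in a microfluidic trap array.

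The CD8+ T-cells were primary splenocytes from C57BL/6J mice of both sexes. They had been activated for 30 h with plate-bound anti-CD3 at 5 µg/mL and anti-CD28 at 2 µg/mL and then grown on-chip in medium that held 100 U/mL of IL2, 10% serum and 2-mercaptoethanol. L1210 is an established lymphocytic leukemia line of DBA mice, and its cells grew in medium with the same share of serum but with neither IL2 nor 2-mercaptoethanol. All differences between the cell types therefore cannot be told apart from those of strain, of a line against primary cells, of activation and of medium. Doublets and libraries with fewer than 1000 genes above 0 TPM were left out, which removed 4 doublets and 5 other CD8+ T-cell libraries as well as 2 doublets and 5 other libraries of the L1210 line. The lowest CD8+ T-cell retained had 2639 detected genes and the highest single cell removed had 714, where the same 2 values were 1610 and 801 in L1210 cells.

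The cells fell into 34 CD8+ T-cell lineages and 26 L1210 lineages, a lineage being the sister and cousin cells recorded as the descendants of 1 founder. A cell without analysed relatives was counted as a lineage too. These were 7 of the CD8+ T-cell lineages, whose cells had no recorded sister or cousin, and 2 of the L1210 lineages, whose sister libraries were left out. Lineages served as replicates because no label ties a cell to a mouse or a culture, so that a p value speaks for the spread among lineages and leaves out that among mice. Levels are given as TPM, the length-scaled share of transcripts out of 1e+06, or as ln(TPM + 1). TPM keep no depth, and the number of genes above 0 TPM is the measure of library quality used here, with medians of 6862 for CD8+ T-cells and 8402 for L1210. Cd3e, which belongs to the signalling part of the T-cell receptor, was above 0 in 97 of 97 CD8+ T-cells and in 0 of 81 L1210 cells.

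The receptor for IL-2 is built from an alpha chain (Il2ra, CD25), which raises its affinity, a beta chain (Il2rb, CD122) shared with the receptor for IL-15, and the common gamma chain (Il2rg), which the receptors for IL-4, IL-7, IL-9, IL-15 and IL-21 also use. The receptor for IL-7 pairs Il7r (CD127) with the same gamma chain. Both signal through JAK1 and JAK3 to STAT5, which enters the nucleus and switches on genes that include Cish, Socs1 and Socs3, whose proteins then dampen the pathway. In T-cells, activation is known to raise Il2ra and lower Il7r, and in B-cell precursors the IL-7 receptor is the one known to drive growth.

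STAT5 binds the palindrome TTCNNNGAA, which reads the same on both strands. The members' promoters were searched for it, since several of the members are known to be STAT5 targets as well as parts of its pathway, and sequences from RefSeq on GRCm38.p6, from 250 bases before to 50 bases after a start site, were at hand for 9 of the 10 members. Cish held 2 matches, which begin 1 and 12 bases downstream when its RefSeq start site is counted as base 1. Il7r and Socs3 held 1 each, which begin 142 and 154 bases upstream of their RefSeq start sites. By the GENCODE coordinates given below, these 3 genes begin further upstream, so that all of the matches lie inside those gene bounds. No match was found within the windows of Il2ra, Il2rg, Jak3, Stat5a, Stat5b and Socs1. Of 32851 promoters in the table, 8.30% held at least 1 match and 0.457% at least 2, so that Cish stood among 150 promoters. The 3 promoters with a match are printed 5′ to 3′ on the strand of the gene, with the matches in capitals.
Cish, chr9:107296409-107296708, plus strand: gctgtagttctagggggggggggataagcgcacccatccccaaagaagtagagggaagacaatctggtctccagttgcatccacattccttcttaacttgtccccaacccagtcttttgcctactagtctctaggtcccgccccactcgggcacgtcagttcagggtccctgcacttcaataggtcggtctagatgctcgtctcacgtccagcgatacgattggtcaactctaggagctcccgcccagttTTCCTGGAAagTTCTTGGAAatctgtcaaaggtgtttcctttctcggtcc
Il7r, chr15:9529827-9530126, minus strand: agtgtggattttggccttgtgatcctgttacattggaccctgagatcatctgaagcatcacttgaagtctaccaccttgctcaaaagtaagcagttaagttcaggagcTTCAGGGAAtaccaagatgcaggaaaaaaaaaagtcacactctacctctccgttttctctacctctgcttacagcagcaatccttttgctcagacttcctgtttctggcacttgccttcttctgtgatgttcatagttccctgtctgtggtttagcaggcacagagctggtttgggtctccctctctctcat
Socs3, chr11:117969317-117969616, minus strand: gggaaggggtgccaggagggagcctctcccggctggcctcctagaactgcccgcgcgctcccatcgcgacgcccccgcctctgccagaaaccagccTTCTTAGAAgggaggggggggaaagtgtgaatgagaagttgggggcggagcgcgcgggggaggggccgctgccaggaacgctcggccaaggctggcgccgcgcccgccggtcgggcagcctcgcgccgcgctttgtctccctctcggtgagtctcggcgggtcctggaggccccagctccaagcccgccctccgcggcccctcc

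The first question was which chains of the receptors each cell type expressed. CD8+ T-cells carried all 3 chains of the IL-2 receptor, with Il2ra, Il2rb and Il2rg together above 0 in 91 of 97 cells, whereas L1210 cells carried the 2 chains of the IL-7 receptor, with Il7r and Il2rg together above 0 in 62 of 81 cells and the 3 IL-2 receptor chains in 8. On the ln(TPM + 1) scale the lineage means of Il2rb, Il2rg, Il2ra, Cish, Socs1 and Jak3 were higher in CD8+ T-cells, those of Il7r and Stat5a were higher in L1210 cells, and those of Stat5b and Socs3 did not pass the test. These 8 of 10 members past the threshold compare with 63.6% of the 11373 genes tested, of which 13.5% were higher in CD8+ T-cells and 50.1% higher in L1210 cells (limma on lineage means, adjusted p under 0.05 over all genes). The median gene differed by -0.41 (CD8+ T-cells minus L1210), and the median of the 10 members by 1.198. With the number of detected genes as a covariate the split of all calls moved to 2109 higher in CD8+ T-cells and 3548 higher in L1210 cells, and each of the 8 members kept its direction and its call.

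**Figure D1:**
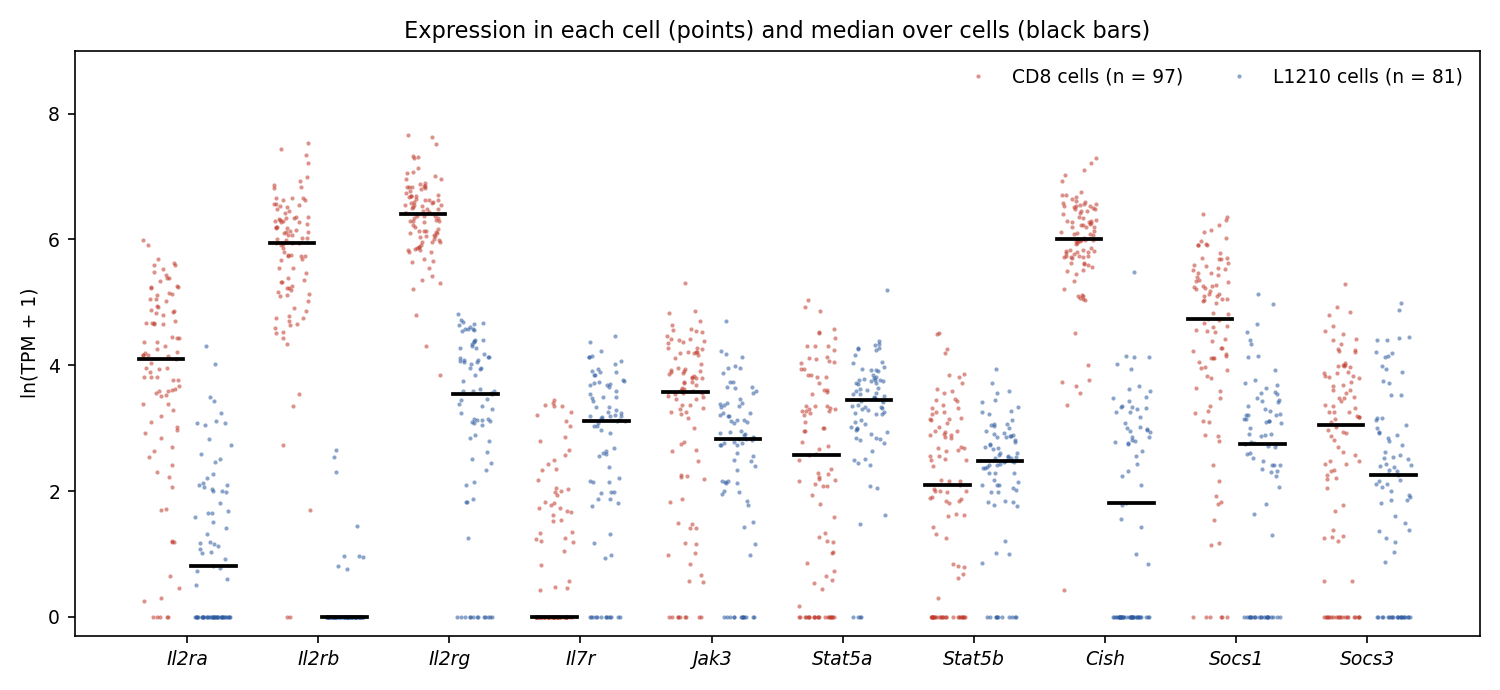
Expression of the 10 members in each of 97 CD8+ T-cells (red points) and 81 L1210 cells (blue points), on the vertical axis as ln(TPM + 1), with the median over cells as a black bar. Il2rb has a median of 383 TPM in CD8+ T-cells and of 0 in L1210 cells, while Il7r has medians of 0 and 21.7 TPM in the same order.

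Il2rb (15:78479256-78495271 on GRCm38, minus strand), the signalling chain shared with IL-15, separated the cell types most of the 10 members. In CD8+ T-cells it ranged from 0 through a median of 383 to 1869 TPM and was above 0 in 95 of 97 cells, and in L1210 cells it was above 0 in 9 of 81 cells with a highest value of 13.2 TPM. The difference was 5.63 ± 0.186 (SE) on the ln(TPM + 1) scale, with an adjusted p of 1.4e-39 in limma, which placed the gene at rank 28 of 11373. The lineage means did not overlap, with 3.37 as the lowest in CD8+ T-cells and 0.66 as the highest in L1210 cells. A complete lack of overlap with CD8+ T-cells higher was found for Il2rb and Il2rg among the members and for 0.536% of all genes tested.

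Il2rg (X:101264378-101268255, minus strand), the common gamma chain, was the highest member in CD8+ T-cells. Every one of the 97 cells had it, from 45.5 through a median of 599 to 2135 TPM, and in L1210 cells it was above 0 in 68 of 81 cells, with a median of 33.5 and a highest value of 122 TPM. The difference of 3.23 ± 0.221 (SE) corresponds to a 25.4-fold ratio of geometric means of TPM + 1 (limma, adjusted p = 2.1e-21). Thus the gamma chain was present in both cell types, at a level in L1210 cells that lay below all CD8+ T-cell lineage means.

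Il2ra (2:11642807-11693193, plus strand), which turns the receptor into its high-affinity form, was above 0 in 92 CD8+ T-cells, with a lowest value of 0, a median of 59.7 and a highest of 396 TPM. In L1210 cells 45 of 81 were above 0, and the median was 1.26 and the highest value 73.4 TPM. The cell types thus overlapped, and the difference of their lineage means was 2.62 ± 0.304 (SE), a 13.7-fold ratio (limma, adjusted p = 1.6e-11).

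Il7r (15:9505788-9530176, minus strand), the chain that binds IL-7, went the other way. It was above 0 in 45 of 97 CD8+ T-cells, where the median was 0 and the highest value 30.5 TPM, and in 68 of 81 L1210 cells, where the median was 21.7 and the highest value 85.8 TPM. The lineage means were 1.00 ± 0.88 (SD, n = 34) and 2.50 ± 1.17 (SD, n = 26), and the difference of -1.501 ± 0.258 (SE) passed the test (limma, adjusted p = 9.3e-07), a 4.48-fold ratio of geometric means of TPM + 1, higher in L1210 cells. Its size moved with the processing, from -2.28 to -0.67 over the alternatives, among them other pseudocounts. Both groups held cells and lineages at 0, which were 8 of the CD8+ T-cell lineages and 2 of the L1210 lineages.

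Jak3 (8:71676296-71690575, plus strand), the kinase that binds the gamma chain, was detected in 88 of 97 CD8+ T-cells and in 68 of the 81 L1210 cells. Its medians were 34.9 TPM in CD8+ T-cells, with a highest value of 201, and 15.9 TPM in L1210 cells, with a highest value of 110, and both groups had cells at 0. The difference of 0.63 ± 0.260 (SE) had an adjusted p of 0.0317 in limma, and the call was lost with a pseudocount of 0.1 (adjusted p = 0.081), without the filter (0.054), between 1 and 9 h since division (0.082) and in cells with recorded cousins only (0.18).

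Stat5a (11:100859351-100885169, plus strand) and Stat5b (11:100780731-100850724, minus strand) encode the factors that carry the signal to the nucleus, and they lie 8626 bases apart. Stat5a had medians of 12.1 TPM in CD8+ T-cells and 30.2 TPM in L1210 cells, with highest values of 153 and 180 TPM. Its lineage means were higher in L1210 cells by 2.51-fold (difference -0.92 ± 0.227 SE, limma, adjusted p = 0.00036). That fold is a ratio of geometric means of TPM + 1. Arithmetic mean TPM were 25.3 for the CD8+ type and 33.8 for the L1210 line, with 78.4% and 95.1% of libraries above 0. The Stat5a difference ran from -1.37 to -0.40 over the alternatives. The median gene lay at -0.41, and 23.2% of all genes tested lay below Stat5a. Stat5b had medians of 7.17 and 10.96 TPM, with highest values of 89.9 and 50.1 TPM, and its difference of -0.37 ± 0.226 (SE) did not pass (limma, adjusted p = 0.14) and lay within 0.04 of the median gene. Their transcripts in GENCODE share 850 stretches of 30 bases, the read length, which are 20.6% of those of Stat5a and 15.4% of those of Stat5b. RSEM may therefore have split reads between them, and how far this alters each level was not tested. At least 1 of the 2 was above 0 in 86 CD8+ T-cells and 79 L1210 cells.

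Of the feedback inhibitors, Cish (9:107296026-107302784, plus strand), whose protein CIS binds the IL-2 receptor and whose promoter held the 2 matches printed above, differed most. Every CD8+ T-cell had it, from 0.52 through a median of 407 to 1476 TPM, and 46 of 81 L1210 cells had it, with a median of 5.11 and a highest value of 240 TPM. The difference of 3.92 ± 0.311 (SE) is a 50.4-fold ratio (limma, adjusted p = 3.1e-18), and it ran from 2.80 to 4.88 over the alternatives. Although the medians lie far apart, the lineage means overlapped, with 0.42 as the lowest in CD8+ T-cells and 5.49 as the highest in L1210 cells. Both values came from lineages with 1 analysed cell. Among lineages of 2 or more cells the means did not overlap, with 4.30 as the lowest in CD8+ T-cells and 4.05 as the highest in L1210 cells. That subset leaves out the lineages that made the overlap, and the share of all genes without overlap in it was not computed.

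Socs1 (16:10782240-10785536, minus strand), which inhibits JAK kinases directly, was above 0 in 91 CD8+ T-cells and 59 L1210 cells. Its medians were 113 and 14.5 TPM and its highest values 602 and 168 TPM, and the difference of 1.77 ± 0.333 (SE) passed (limma, adjusted p = 5.4e-06). Socs3 (11:117966079-117970047, minus strand), best known for restraint of IL-6 family receptors, was above 0 in 77 and 60 cells with medians of 20.2 and 8.57 TPM and highest values of 199 and 147 TPM. Its difference of 0.43 ± 0.291 (SE) did not pass (limma, adjusted p = 0.19), and it reached 0.046 with detected genes as a covariate.

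**Figure D2:**
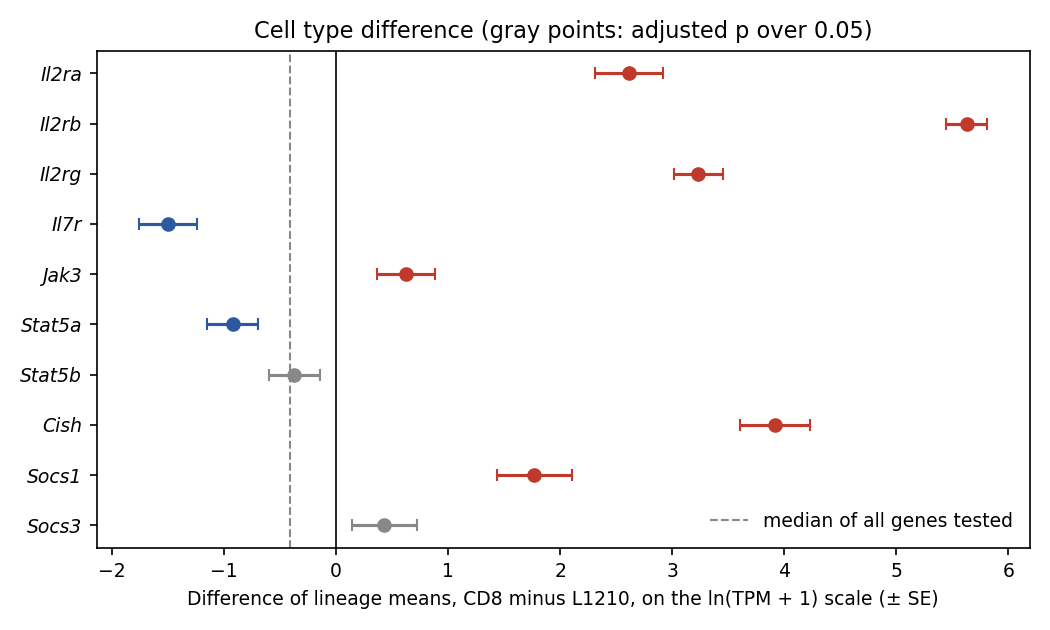
Difference of the lineage means, CD8+ T-cells minus L1210 cells, on the ln(TPM + 1) scale for each member, with the standard error as a bar, over 34 and 26 lineages. Points to the right of 0 are higher in CD8+ T-cells, and Il2rb lies at 5.63, Cish at 3.92 and Il7r at -1.501, with the median of all genes tested as a dashed line at -0.41.

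Within CD8+ T-cells the order of the lineage means, from highest to lowest, was Il2rg, Il2rb, Cish, Socs1, Il2ra, Jak3, Socs3, Stat5a, Stat5b and Il7r. Only the step from Cish to Socs1, 1.63 on the ln(TPM + 1) scale and present in 33 of 34 lineages, was larger than the SD of that difference over lineages (1.40). All other neighbours differed by less than their spread. In L1210 cells the order was Stat5a, Il2rg, Il7r, Jak3, Socs1, Stat5b, Socs3, Cish, Il2ra and Il2rb, and no step between neighbours exceeded its SD.

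The wider pathway was read from lists chosen by function, with earlier results of these data known. None of the 7 cytokines that use the gamma chain or the related TSLP receptor passed the filter on low values in either cell type. Of 5 other receptor chains 4 were tested, and Crlf2, Il4ra and Il21r were higher in CD8+ T-cells and Il15ra in L1210 cells, with a list median of 0.89 against -0.41 over all genes. Crlf2, the chain that joins Il7r in the receptor for TSLP, had a median of 7.77 TPM in CD8+ T-cells and was at 0 in all 81 L1210 cells. Il4ra differed by 1.18 ± 0.289 (SE), Il21r by 0.59 ± 0.267 (SE) and Il15ra by -0.89 ± 0.273 (SE). Among 8 other JAK kinases and STAT factors 3 were higher in CD8+ T-cells, among them Stat4 (3.04) and Jak1 (1.11), the kinase that works beside JAK3 on both receptors, and 2 were higher in L1210 cells, which were Stat3 (-1.06) and Stat6 (-0.68). The list median was 0.069.

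The other inhibitors and the further arms of the receptor are set beside the 50.1% of all genes that were higher in L1210 cells. Of 14 tested SOCS proteins, phosphatases and PIAS proteins 1 was higher in CD8+ T-cells, Ptpn1, and 9 in L1210 cells, with a median of -0.62, led by Sh2b3 (-3.14 ± 0.254 SE), Socs5 (-1.30 ± 0.187), Socs2 (-1.29 ± 0.253) and Socs6 (-1.02 ± 0.233). Of 17 genes of the adaptor, PI3K and Ras arms 1 was higher in CD8+ T-cells, Pik3cd, the lymphocyte PI3K subunit, and 9 were higher in L1210 cells, with a median of -0.54 and with Gab2 (-1.83) and Pik3cg (-1.28) in front. Both medians lay near that of all genes tested.

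Of 18 tested genes known as targets of IL-2 and STAT5, 10 were higher in CD8+ T-cells and 5 in the L1210 line, with a median of 0.57 against -0.41 over all genes. Gzmb, the protease of killer granules, differed by 5.84 ± 0.416 (SE), Tnfrsf18 by 4.42 ± 0.229 and Bcl2, a survival protein, by 3.57 ± 0.198, whereas the related survival gene Bcl2l1 was higher in L1210 cells (-3.12 ± 0.255), with medians of 57.3 and 860 TPM. The kinase genes of the list were opposed too, with Pim2 at medians of 44.7 TPM in CD8+ T-cells and 6.45 in the L1210 line and Pim1 at 5.25 and 105.1 TPM. Of 11 genes known as FOXO1 targets or as genes of naive and memory T-cells, in which Il7r is high, 5 were higher in CD8+ T-cells although Il7r was lower there. They included Ccr7 (5.15 ± 0.244 SE), Tcf7 (3.37 ± 0.252), Eomes (1.17 ± 0.217) and Klf2 (0.75 ± 0.201), and Bcl6 (-1.63 ± 0.172) and Lef1 (-0.61 ± 0.208) were higher in L1210 cells.

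Of the marker lists, 7 of 8 T-cell markers were higher in CD8+ T-cells and 9 of 9 tested B-lineage markers were higher in L1210 cells, among them Igll1 and Vpreb1, the surrogate light chains of B-cell precursors, at medians of 745 and 483 TPM and at 0 in all 97 CD8+ T-cells. No NK cell marker passed the filter. Ikzf2 was the 1 marker tested of regulatory and helper T-cells and was higher in CD8+ T-cells, and Lyz2 and Cd14 were the 2 tested of myeloid cells and were higher in L1210 cells.

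The second question was whether cells of 1 lineage resembled each other in these genes. For each gene the absolute difference in ln(TPM + 1) was averaged over sister and cousin pairs and compared with that over unrelated pairs, and positions in the pedigree were reassigned 100000 times at random. In CD8+ T-cells there were 43 sister, 72 cousin and 4541 unrelated pairs, and in L1210 cells 38, 62 and 3140. Related CD8+ T-cells were more alike in Il2ra, Cish, Socs1, Socs3 and Il2rg, which makes 5 of 10 members against 6.8% of the 9997 genes tested (adjusted p under 0.05 over all genes). Related L1210 cells were more alike in Il2ra, Cish, Il7r and Jak3, which makes 4 of 9 members against 3.33% of 10536 genes. Il2rb, above 0 in 9 L1210 cells, did not pass the filter there. The members were chosen with earlier results of these data known, so these shares are descriptions and no test of the set. Whether likeness differs between the cell types was not tested. Cells of 1 lineage also share a chip run and a culture, and CD8+ T-cells of 1 lineage share a mouse, none of which the labels name. Likeness by lineage therefore cannot be told apart from likeness by mouse, culture or run.

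Il2ra was the member with the strongest likeness in CD8+ T-cells. Sisters differed by 0.88, cousins by 1.06 and unrelated cells by 1.74 on the ln(TPM + 1) scale, so that related pairs were 42.8% closer, in 23 of 27 lineages with a pair (permutation p = 2e-05, as small as 100000 reassignments allow, with an adjusted p of 0.0017). Of the variance between these cells 64.5% lay between lineages. The contrast is plain in the lineages of 4 cells at the ends of the range. The cells CD8_29, CD8_30, CD8_31 and CD8_32 had 188, 269, 275 and 396 TPM, and the cells CD8_65, CD8_66, CD8_67 and CD8_68 had 0.92, 0, 0 and 0 TPM. All 4 cells of the first lay above the third quartile of CD8+ T-cells, 131 TPM, and all 4 of the second below 1 TPM. The first lineage had a mean of 8334 detected genes and the second 4405, the lowest of the CD8+ T-cell lineages. Over lineages Il2ra had a rho of 0.49 with detected genes, whose part in this contrast was not tested. The call on Il2ra was kept with detected genes removed by regression.

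Cish was 35.9% closer in related CD8+ T-cells, with 0.559 for sisters, 0.598 for cousins and 0.910 for unrelated cells, and in 22 of 27 lineages (permutation test, adjusted p = 0.0028). Among lineages of 4 the lowest, again the cells CD8_65 to CD8_68, had 342, 162, 38.3 and 242 TPM, and the highest, the cells CD8_55 to CD8_58, had 1350, 527, 1013 and 492 TPM. The mean numbers of detected genes in these lineages were 4405 and 5634, in the same order. Related cells also lay closer in Socs1, by 32.2% and in 23 of 27 lineages (permutation test, adjusted p = 0.0028). There the cells CD8_83 to CD8_86 had 0, 16.9, 25.4 and 0 TPM, and of the lineages of 4 cells the one highest in Il2ra was highest in Socs1 too, with 505, 452, 211 and 229 TPM. Sisters were no closer than cousins in Socs1, at 1.22 and 1.18.

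Socs3 was closer by 26.1% in 17 of 27 lineages (permutation test, adjusted p = 0.0149), a call that was lost among cells with 4000 or more detected genes (adjusted p = 0.10). Among lineages of 4 cells the one highest in Cish was also highest in Socs3, at 127, 53.01, 136 and 199 TPM. Il2rg varied least, with 0.670 between unrelated cells, and was closer by 20.9% in 20 of 27 lineages (permutation test, adjusted p = 0.0398). That call was lost with a pseudocount of 0.1 (adjusted p = 0.053), without the filter (0.078) and in the moderated F-test of limma (0.064).

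**Figure D3:**
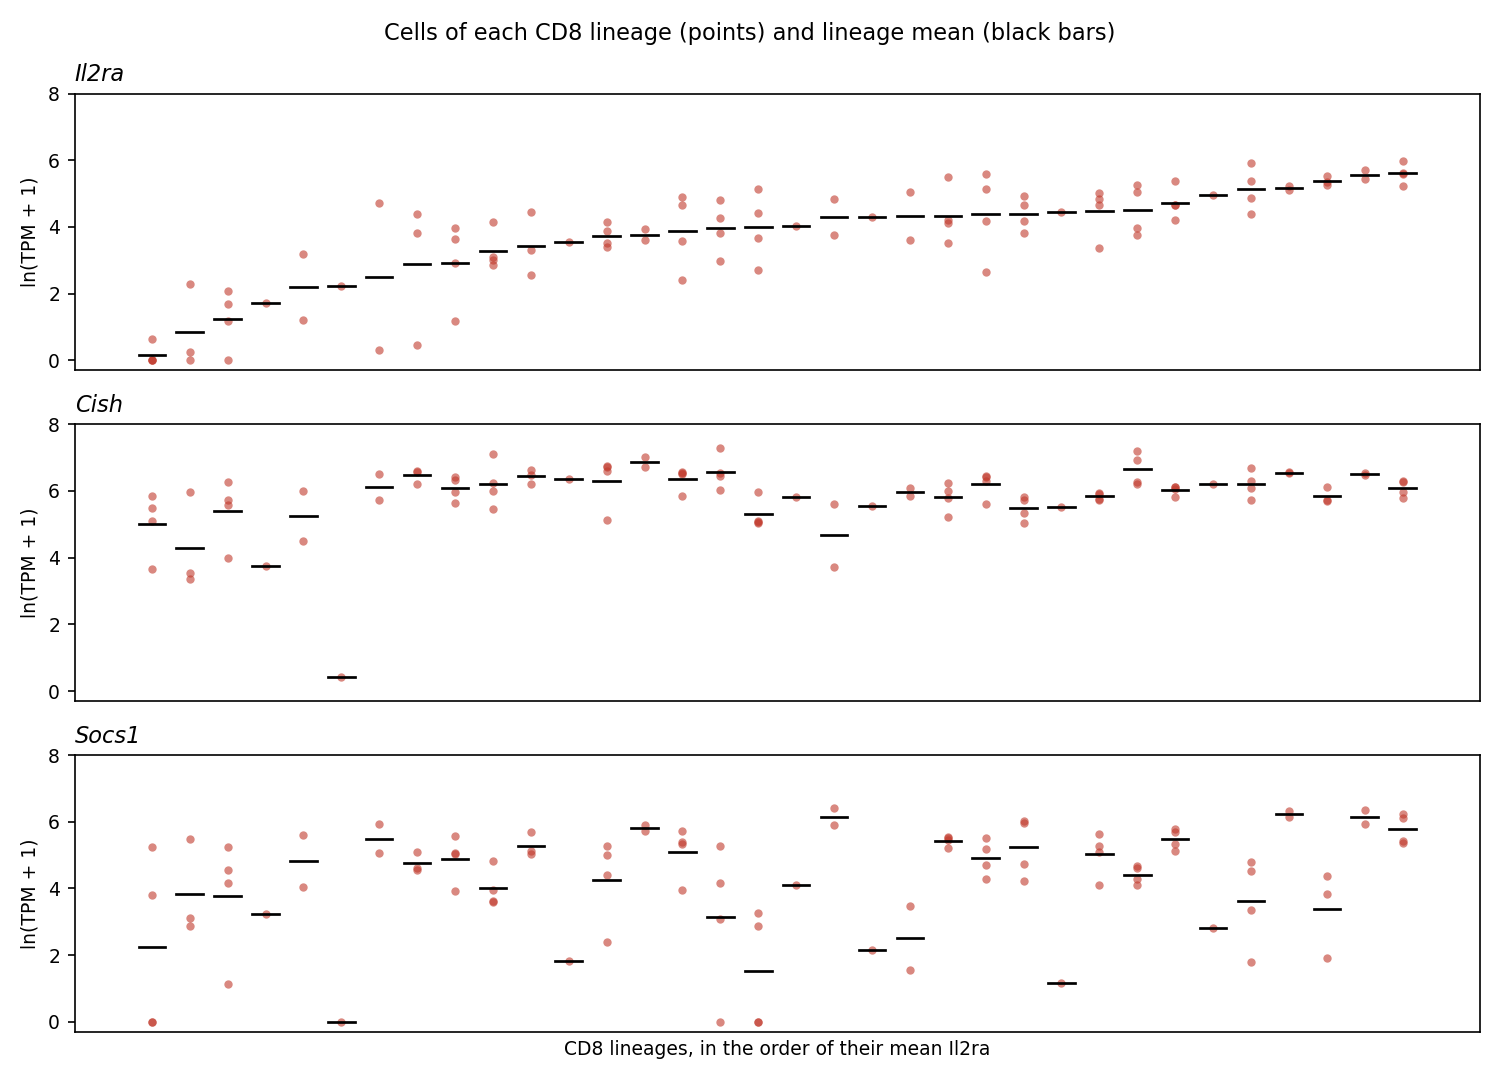
Expression of Il2ra, Cish and Socs1 in the 34 CD8+ T-cell lineages, in the order of their mean Il2ra from left to right, with a point for each of 97 cells and a black bar for the lineage mean, on the vertical axis as ln(TPM + 1). The lineage means of Il2ra extend from 0.16 to 5.61, and the order of the lineages in Cish and Socs1 differs from that in Il2ra.

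The chains and factors without a call in CD8+ T-cells were Stat5b (16.3% closer, adjusted p = 0.15), Il2rb (15.6%, 0.23), Jak3 (11.6%, 0.33) and Il7r (2.6%, 0.87), while Stat5a pairs differed by 3.1% more when related (0.84 in the same permutation test). Il2rb was closer in 21 of 27 lineages and passed in 3 of 11 alternatives, which were cells with recorded cousins only (adjusted p = 0.047), 4000 or more detected genes (0.041) and the moderated F-test of limma (0.0498). Il7r, at 0 in 52 of 97 cells, had a mean difference of 1.04 in sisters, 1.28 in cousins and 1.23 in unrelated cells, and 1.502% of its variance lay between lineages.

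In L1210 cells Il2ra was again more alike in related cells, by 32.7% in 21 of 24 lineages (permutation test, adjusted p = 0.0159), although at a far lower level. In 2 lineages of 4, one of them L1210_25, L1210_36, L1210_47 and L1210_58, all cells were at 0, and the highest, L1210_54, L1210_65, L1210_76 and L1210_86, had 20.9, 4.2, 6.86 and 73.4 TPM. With a pseudocount of 10 TPM the adjusted p rose to 0.068. Cish was closer by 34.8% in 15 of 24 lineages (permutation test, adjusted p = 0.0186), and at its low end 2 lineages of 4 were at 0 in all cells, one of them L1210_10, L1210_21, L1210_32 and L1210_43, while the highest lineage of 4 was L1210_11, L1210_22, L1210_33 and L1210_44, with 14.98, 29.8, 54.6 and 60.97 TPM.

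Il7r, which carried no lineage likeness past the threshold in CD8+ T-cells, was closer in related L1210 cells by 31.5% in 19 of 24 lineages (permutation test, adjusted p = 0.0186), with 0.766 for sisters, 1.22 for cousins and 1.53 for unrelated cells. The lowest lineage of 4 had 7.51, 4.86, 0 and 0 TPM and the highest 32.01, 35.5, 67.9 and 57.4 TPM. Il7r moved with the number of detected genes over L1210 lineages (Spearman's rho of 0.56 over 26 lineages, as a description), and once detected genes were removed by regression its call was lost (adjusted p = 0.15), as it was in cells with recorded cousins only (0.062). Jak3 was closer by 25.7% in 18 of 24 lineages (permutation test, adjusted p = 0.0408), and its call was lost in 6 of 11 alternatives, which were a pseudocount of 10 (adjusted p = 0.12), 4000 or more detected genes (0.069), no filter (0.068), cells with recorded cousins only (0.12), the Mann-Whitney U-test on pairs (0.053) and Rn45s left out (0.0501). Il2rg was closer by 26.5% with an adjusted p of 0.054 in the same permutation test, and 6 of 11 alternatives took it past the threshold, at adjusted p from 0.00997 to 0.048. Once detected genes were removed, which over L1210 lineages had a rho of 0.73 with Il2rg, it was closer by 10.98% (adjusted p = 0.39). Socs3, Socs1, Stat5b and Stat5a had adjusted p values between 0.28 and 0.96.

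**Figure D4:**
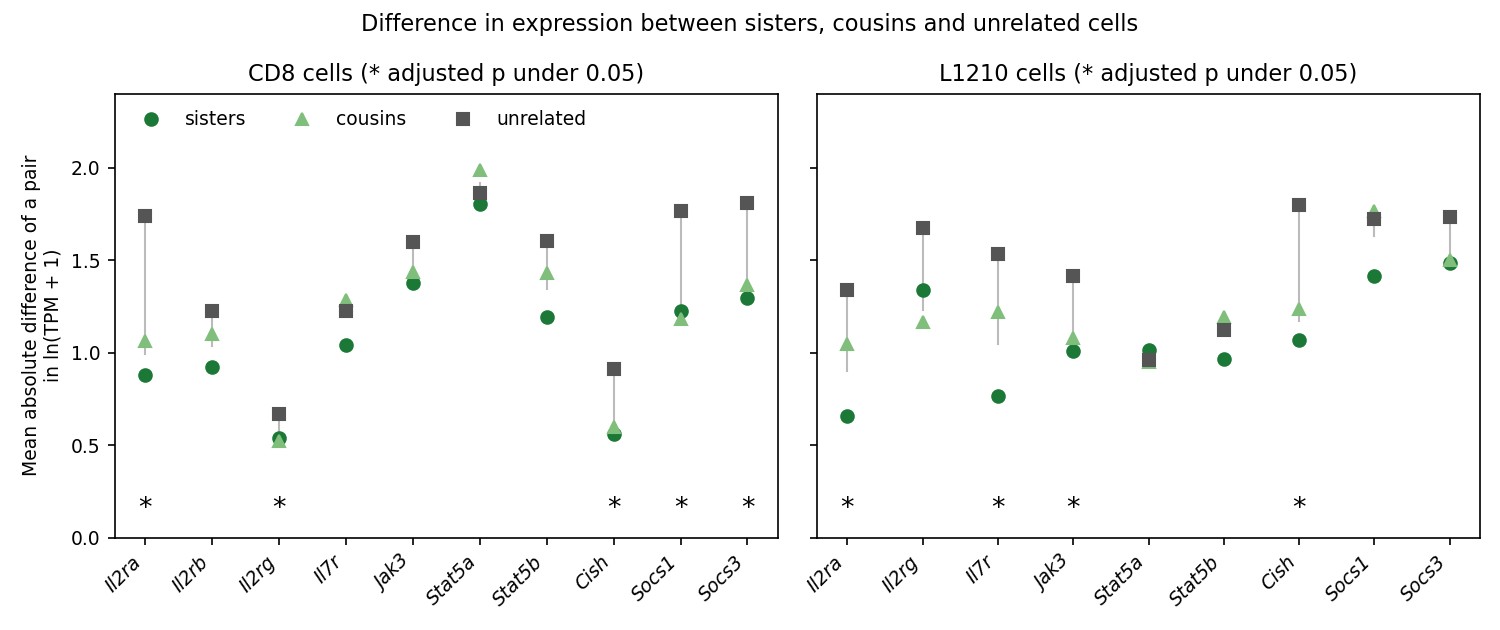
Mean absolute difference in ln(TPM + 1) between sisters (circles), cousins (triangles) and unrelated cells (squares) for the members tested in CD8+ T-cells (left) and L1210 cells (right), with a gray line from the mean of all related pairs to that of unrelated pairs and a star for an adjusted p under 0.05. Il2ra falls from 1.74 in unrelated to 0.88 in sister CD8+ T-cells, and Stat5a lies at 1.86 and 1.81.

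The lists were read in the same way, beside the 6.8% of all genes tested that passed in CD8+ T-cells and the 3.33% in L1210 cells. Like the members, they were chosen with earlier results of these data known, so their shares are descriptions and no test of a list. The authors had already reported Gzmb among the genes most alike within CD8+ T-cell clones. None of the 4 other receptor chains, 8 JAK kinases and STAT factors or 14 inhibitors passed in CD8+ T-cells, and 2 of 16 genes of the adaptor, PI3K and Ras arms did, among them Pik3cg. Of 18 targets of IL-2 and STAT5, 10 were more alike in related CD8+ T-cells, with a list median of -25.1% against -7.77% over all genes. They included Gzmb (55.6% closer), Pim2 (38.5%), Osm (31.5%) and Lta (30.8%). Of 10 tested genes that accompany Il7r, 5 passed, with a list median of -25.4%, and they included Ccr7 (40.2% closer), a receptor for homing to lymph nodes, Eomes (33.5%), S1pr1 and Tcf7. In L1210 cells Il4ra, Myc and Bach2 were the genes of these lists that passed, at 24.1%, 27.7% and 36.9% closer. They were 1 of 3 receptor chains tested, 1 of 12 targets and 1 of 8 genes that accompany Il7r. None passed there of 7 JAK kinases and STAT factors, 14 inhibitors and 17 genes of the adaptor, PI3K and Ras arms. Of the markers, 3 of 8 T-cell genes passed in CD8+ T-cells, Cd8b1 (61.2% closer), Cd8a (55.8%) and Thy1 (22.8%), and in L1210 cells Thy1 (36.01%) and 3 of 9 B-lineage genes did, Igll1 (33.4%), Ebf1 (30.6%) and Vpreb2 (30.3%).

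The third question was whether Il2ra and Il7r opposed each other. Between cell types they did, since 86 of 97 CD8+ T-cells had more Il2ra than Il7r in TPM, which are scaled by length, and 63 of 81 L1210 cells had more Il7r than Il2ra. Within a cell type no opposition was found. Over 34 CD8+ T-cell lineages Pearson's r was 0.094 (permutation p = 0.60, adjusted p = 0.60) and Spearman's rho 0.13 (p = 0.46, adjusted p = 0.46). Over 26 L1210 lineages the relation was positive, with r = 0.56 (permutation p = 0.0028, adjusted p = 0.0056 over the 2 cell types) and rho = 0.62 (p = 0.00096, adjusted p = 0.0019). Without the 2 lineages farthest from the median of Il2ra r was 0.097 in CD8+ T-cells and 0.57 in the L1210 line.

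A part of the cells had no recorded cousins, and the relation was computed in each subset. In L1210 cells r was 0.40 over the 17 lineages with recorded cousins, where it no longer passed (permutation p = 0.11, adjusted p = 0.14), and 0.72 over the 9 lineages without. In CD8+ T-cells it was 0.34 over 20 lineages and -0.10 over 14. After removal of detected genes by regression r in L1210 cells was 0.50 (permutation test, adjusted p = 0.018).

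**Figure D5:**
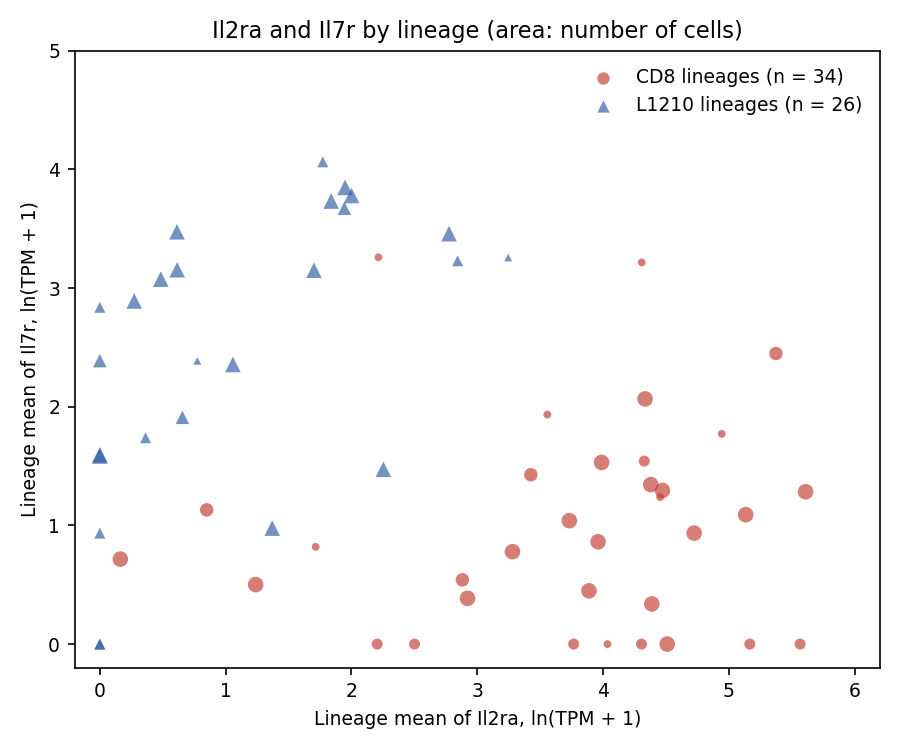
Lineage means of Il2ra (horizontal axis) and Il7r (vertical axis), both as ln(TPM + 1), for 34 CD8+ T-cell lineages (red circles) and 26 L1210 lineages (blue triangles), with the area of a point in proportion to its number of cells. L1210 lineages lie to the left, from 0 to 3.25 in Il2ra and from 0 to 4.06 in Il7r. Most CD8+ T-cell lineages lie to the lower right, within 0.16 to 5.61 in Il2ra and 0 to 3.26 in Il7r. The cell types overlap in both genes, and r is 0.56 in L1210 cells and 0.094 in CD8+ T-cells.

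Cell by cell, 44 CD8+ T-cells had both transcripts, 48 Il2ra alone, 1 Il7r alone and 4 neither. The 45 cells with Il7r had a median of 82.96 TPM of Il2ra and of 7444 detected genes, and the 52 cells without it 44.2 TPM and 6286 genes. The cells with Il7r thus had the higher median of Il2ra as well as of detected genes, whose part in this was not tested. In L1210 cells 42 had both, 3 Il2ra alone, 26 Il7r alone and 10 neither.

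Within CD8+ T-cells the nearest member to Il2ra over the 34 lineages was Il2rb, with a rho of 0.54, at place 204 of 9996 genes. It was 0.60 over 20 lineages with recorded cousins and 0.54 over 14 without, and both genes moved with detected genes, with rho of 0.49 for Il2ra and 0.71 for Il2rb. The correlations are descriptions over lineages that share libraries of unequal quality and are given with no test. Il2ra also moved with Gzmb, the killer granule gene, with a rho of 0.48, and Il2rb did so with 0.54, while Cish and Gzmb had 0.11. Jak3 and Stat5b too moved with detected genes over CD8+ T-cell lineages, with rho of 0.55 and 0.48. Their own rho of 0.70 was the highest among pairs of members, at 0.68 with and 0.80 without recorded cousins. Within CD8+ T-cell lineages their r, from deviations of cells from the lineage mean, was 0.12, and over L1210 lineages their rho was 0.20.

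The lowest was that of Il7r and Socs1 in CD8+ T-cells, with a rho of -0.57, at place 9977 of 9996 for Il7r. This rested on the lineages without recorded cousins, where it was -0.88 over 14 lineages, 7 of which were at 0 in Il7r, and it was 0.0015 over the 20 lineages with recorded cousins. In the subset without recorded cousins Il7r and Socs1 varied over wide ranges, as seen in SDs of the lineage means of 1.205 and 2.07 against 0.60 and 1.12 in lineages with recorded cousins. All 7 lineages of a single cell were in the subset without. Most of its lineages above 0 in Il7r were single cells, and most of those at 0 were sister pairs.

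Over all 9996 genes the 5 most like Il2ra were Ciapin1 (rho 0.80), which takes part in iron-sulfur protein assembly, Cct6a (0.71), a chaperonin subunit, Prkcsh (0.70), 2310061I04Rik (0.69) and Stard4 (0.69), and the 5 most unlike were Myl12b (-0.66), Rps6ka5 (-0.62), Exosc8 (-0.60), Stmn1 (-0.58) and Arhgdib (-0.57). Those most like Il7r were Fau (0.79), Rps20 (0.77), Rps15 (0.76) and Rps13 (0.76), all of the small ribosomal subunit, and 2310039H08Rik (0.75), and those most unlike were Ccnl1 (-0.68), Yipf4 (-0.66), Atxn2l (-0.65), Smarcc2 (-0.64) and Polr2m (-0.63). None of the 10 members was among these genes. The rankings were not computed by subset of recorded cousins, and 8 of the 34 lineages were tied at 0 in Il7r.

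The last question was whether the members changed with the time since the last division, which was recorded for 94 CD8+ T-cells, from 0.5 to 9.48 h, and for all 81 L1210 cells, from 0.354 to 12.8 h. No member passed in either cell type in limma on lineage means. The number of all genes that passed was also small, at 9 of 9997 in CD8+ T-cells (0.09%, with 12.9% at an unadjusted p under 0.05) and 0 of 10536 in L1210 cells (0%, with 588 genes or 5.58% at an unadjusted p under 0.05), and with lineage as a block on cells 14 genes rose and 9 fell in CD8+ T-cells.

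The lowest p of the members was that of Stat5b in CD8+ T-cells. Its median was 17.2 TPM in 23 cells under 3 h, 7.61 TPM in 45 cells from 3 to 6 h and 1.76 TPM in 26 cells at 6 h or more, and the share of cells above 0 was 95.7, 75.6 and 53.8%. The slope of -0.23 ± 0.070 (SE) per h on the ln(TPM + 1) scale had an unadjusted p of 0.0024 in limma but an adjusted p of 0.17 over all genes. Jak3 had a slope of -0.17 ± 0.067 and Stat5a one of -0.16 ± 0.076, with adjusted p of 0.28 and 0.35 in limma. The median Stat5a was 39.9 TPM in the first window, 8.70 in the second and 7.92 in the third, and Jak3 had 54.7, 31.9 and 32.4 TPM. In L1210 cells the Stat5b slope was 0.0027 ± 0.036 per h, and the difference of the slopes between the cell types, -0.23 ± 0.074, had an adjusted p of 0.24 (limma, where 0.0109% of 9160 genes passed).

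The receptor chains and inhibitors gave slopes in CD8+ T-cells of -0.13 ± 0.096 per h for Il2ra, -0.0026 ± 0.037 for Il2rg, 0.10 ± 0.053 for Il7r, -0.16 ± 0.092 for Socs1 and -0.038 ± 0.052 for Cish, with adjusted p between 0.43 and 0.98 in limma. Median Il2ra was 78.3, 63.2 and 39.98 TPM over the 3 windows. In L1210 cells slopes reached from -0.087 ± 0.055 for Il7r to 0.10 ± 0.064 for Cish, with adjusted p of 0.85 or more. With time since division removed by regression the likeness of Il2ra, Cish, Socs1, Socs3 and Il2rg in related CD8+ T-cells remained past the threshold, at adjusted p of 0.0078, 0.0078, 0.012, 0.012 and 0.037, and so did that of Il2ra, Cish, Il7r and Jak3 in L1210 cells, at 0.012, 0.017, 0.012 and 0.028, in the permutation test.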

How the data were processed

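Single cells were sequenced by Smart-Seq2 as 30-base paired-end reads. The authors estimated expression with RSEM 1.2.3 for UCSC genes on mm10 and deposited TPM, which sum to 1e+06 in each library and keep no depth. Its unit is not a count, so no count model was used. The ribosomal precursor Rn45s took a median of 22.6% of the TPM in the CD8+ type and 21.9% in the L1210 line.

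Expression was put on the ln(TPM + 1) scale. Genes over 1 on it in above 10% of a type's cells were tested for it. Lineages were built from sister and cousin labels that name each other. Type differences and slopes on time were fitted in limma 3.58.1 to lineage means over all genes. Likeness was tested by reassignment of cells over the pedigree (100000 resamples, 10000 in alternatives), and all tests were 2-sided. Except for the correlations, p values were adjusted by Benjamini and Hochberg over all genes. Correlations of Il2ra and Il7r used 100000 permutations, 10000 in alternatives, and their p values were adjusted in the same way over the 2 cell types. Methods were tested on simulated data. The members and lists were chosen with earlier results of these data known. The text names the members, Cd3e, up to 4 genes of a list with the largest change and the 5 genes most like and unlike Il2ra and Il7r. Pim1, Pim2 and Ptpn1 as well as genes that a small count called for were named after their values were seen. Coordinates are from GENCODE on GRCm38. Python 3.11.15 was used. Some genes that this rule names are not reported here.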

Additional observations from a re-analysis of the deposited data

How the results depend on the processing

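Over 11 alternatives to each type difference and likeness and 8 or 9 to each slope, 514 values of single members kept their direction and their side of the threshold, 17 lost and 10 gained a call, and 21 changed sign, none of them past the threshold; the causes were not tested. Il2ra, Il2rb, Il2rg, Il7r, Stat5a, Cish and Socs1 kept their type difference, and Il2ra, Cish and Socs1 in CD8+ T-cells and Cish in L1210 cells their likeness, under every alternative. The sizes of the type differences moved, for Il2ra from 1.48 to 3.61, Il2rb from 3.51 to 7.70, Il2rg from 2.66 to 3.63 and Socs1 from 1.24 to 2.37.

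The relation of Il2ra and Il7r in L1210 cells no longer passed in cells with recorded cousins only (r = 0.40). Genes higher in L1210 cells numbered 3548 with detected genes as a covariate. In L1210 cells 218 genes were more alike in relatives with a pseudocount of 0.1, 232 without Rn45s, 210 without the filter, 611 with time removed, 545 by the Mann-Whitney U-test on pairs and 1171 by limma's F-test, against 351, and 1 was less alike at 4000 or more detected genes. In CD8+ T-cells 4 genes were less alike with recorded cousins only.

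Genes that rose with time in CD8+ T-cells, 4 as reported, numbered 2 with a pseudocount of 0.1, without Rn45s or with recorded cousins only, 7 with a pseudocount of 10, 18 at 4000 or more detected genes, 1 without the filter, 12 with detected genes as a covariate and 14 on cells with lineage as a block, and those that fell, 5 as reported, numbered 3, with a pseudocount of 0.1, 0, with recorded cousins only, 2, without the filter, and 9, on cells with the block. In L1210 cells 1 gene rose with detected genes as a covariate. Genes with a higher slope in CD8+ T-cells, 1 as reported, numbered 0 without Rn45s, 6 with recorded cousins only and 2 with detected genes as a covariate, and those with a lower slope, 0 as reported, 1 with a pseudocount of 10 and 2 at 4000 or more detected genes.

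Changes of sign were, for likeness in CD8+ T-cells, Il7r at 0.45% with a pseudocount of 10 and Stat5a at -1.71% with detected genes removed. In L1210 cells Stat5a was at -0.88% and -3.69% with 2000 and 4000 or more detected genes, -1.52% without Rn45s, -2.71% with recorded cousins only and -0.98% with detected genes removed, and Stat5b at 1.59% with a pseudocount of 0.1. Slopes per h in CD8+ T-cells were 0.0013 and 0.0045 for Il2rb at 4000 or more detected genes and with detected genes as a covariate, and 0.016 and 0.031 for Il2rg at 4000 or more detected genes and with recorded cousins only. In L1210 cells with recorded cousins only they were 0.012 for Il2ra, 0.023 for Il2rg, 0.0056 for Il7r, -0.059 for Stat5a and -0.0050 for Socs1. On cells with lineage as a block Stat5b was at -0.013 and Socs1 at -0.0099, and with a pseudocount of 10 Stat5b was at -0.0018 and Socs3 at 0.0052.

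No paired analysis was possible because the numbers in the labels only name the libraries, and the tests compare lineages, which share no number between the cell types. Precision for members of low level, such as Il7r in CD8+ T-cells and Il2ra in L1210 cells, is limited by a read depth that TPM do not keep.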

Other observations

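Libraries that the labels mark as doublets were left out above. The 4 CD8+ T-cell doublets had 0, 1.16, 0.64 and 15.7 TPM of Il2ra and 0, 0, 0 and 26.3 TPM of Il7r, with 74.5 to 499 TPM of Il2rb and 305 to 1101 TPM of Il2rg. In the 97 single CD8+ T-cells the lower quartile of Il2ra was 19.4 TPM. The doublets were recorded at 0.2 to 0.55 h since division, with CD8_63 and CD8_64 as sisters, while the recorded times of the single cells ran from 0.5 to 9.48 h. Of the 2 L1210 doublets 1 had 86.3 TPM of Il7r, beside a highest value of 85.8 TPM in the 81 single cells, and the other, with 1823 detected genes, was at 0 in all 10 members. Of the libraries left out for fewer than 1000 detected genes, 2 of CD8+ T-cells, with 529 and 714 detected genes, had 177 and 414 TPM of Il2rb and 222 and 6.34 TPM of Cish, and 0 in Il2ra. The 5 L1210 libraries left out for this reason were at 0 in all 10 members.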
